A study of Mus musculus with 9 samples.

Results

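Axon guidance ligands and receptors are described here across sorted stromal cells of mouse fat and muscle: the semaphorins of classes 3 to 7 with their plexin and neuropilin receptors, the ephrins with their Eph receptors, the Slits with the Robos, and the netrins with the Unc5 receptors. Members were taken by gene symbol alone, with no measured value in the rule, and 69 of the 26214 genes of the expression table matched. The 69 include Plxna4os1, an antisense transcript whose symbol begins like that of a plexin. The study compared adipose stromal cells (ASCs) with fibro-adipogenic progenitors (FAPs) of resting muscle and of muscle soon after injury, by RNA-seq. The labels give the strain as C57Bl/6, and the study names C57BL/6J males of 8 to 12 weeks. ASCs came from subcutaneous adipose tissue after NaCl injection (3 libraries), FAPs from quadriceps muscle after NaCl injection (2 libraries) and injured FAPs from quadriceps muscle after Glycerol injection, which damages muscle fibres (3 libraries), all taken at Day 1. These cells were sorted with magnetic beads as negative for CD31 and CD45 and positive for Sca-1, and the study describes triplicates from a pool of cells of 3 animals. Whether the libraries of a group share 1 pool is not stated in the sources used here, and FAPs of resting muscle have 2 libraries here, not 3. A further library, of which there is 1, holds CD31+CD45+ cells of quadriceps muscle after Glycerol injection, the endothelial and blood cells that the sort removes. It is given as values with no test. Reads on genes numbered 27481573, 27349184 and 27402102 in the ASC libraries, 24052508 and 24164447 in the FAP libraries, 26968235, 26698572 and 27028114 in the injured FAP libraries and 13091077 in the CD31+CD45+ library.

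Axon guidance proteins were named for steering growing nerve fibres, and the same ligand and receptor pairs guide cell migration, vessel growth and tissue boundaries outside the nervous system. Secreted class 3 semaphorins signal mainly through neuropilins paired with plexins, membrane-bound semaphorins bind plexins directly, ephrins and Eph receptors signal between touching cells, Slits signal through Robos, and netrins through Dcc, neogenin and the Unc5 receptors. In muscle and fat, stromal cells lie beside vessels and nerve endings, which carry many of the same receptors.

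The labelled cell type was checked against 8 stromal markers (Ly6a, which encodes Sca-1, with Cd34, Pdgfra, Thy1, Pdpn, Dcn, Col1a1 and Col3a1). A value here is the normalised read count of the deposited table, that is, reads divided by a size factor of the library. All 8 were above 0 in every library, and their values summed to 2988738, 2750504 and 3159525 in the ASC libraries, 1539651 and 1670352 in the FAP libraries, 690305, 749126 and 669559.9 in the injured FAP libraries and 64159.6 in the CD31+CD45+ library. Col1a1 was the most abundant of the 8 in every library but injured FAP 3, where Col3a1 was. At 1554055 in ASC 1 and 730860 in FAP 1, Col1a1 made up a large part of the sums. Since all 8 were above 0 in the CD31+CD45+ library too, presence alone does not set the stromal libraries apart. After injury 2 of the 8 were called higher and 4 lower against FAPs, beside 24.9% and 27.7% of all genes tested. The 14 endothelial markers summed to 7753, 6237 and 8161 in the ASC libraries, 7348 and 5009 in the FAP libraries, 2727, 2879 and 2289 in the injured FAP libraries and 388393 in the CD31+CD45+ library. Tek was the most abundant of them in ASCs and FAPs and Cdh5 in the other libraries. Tek read 5986, 4841 and 6700 in the ASC libraries, most of each ASC sum, and 2120 and 1890 in the FAP libraries. In both FAP libraries Emcn, Cldn5, Vwf and Plvap were at 0, and Pecam1 was at 0 in FAP 2 as well. As a median over the 14 genes, the level was 0.198%, 0.0969% and 0.128% of that of the CD31+CD45+ library in ASCs, 1.53% and 0.871% in FAPs, and 0.491%, 0.687% and 0.480% in injured FAPs. The 14 leukocyte markers summed to 490.1, 412 and 385 in the ASC libraries, 265 and 497 in the FAP libraries, 723, 3293 and 622 in the injured FAP libraries and 33918 in the CD31+CD45+ library, so injured FAP 2 stood apart from the other injured FAP libraries in this list. Cd68 or Csf1r was the most abundant leukocyte marker in ASCs, Cd68 in FAPs and in injured FAP 1 and 3, and Lyz2 in injured FAP 2. Cd74 led in the CD31+CD45+ library. Cd3e was at 0 in every ASC library, and Ptprc in both FAP libraries.

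Markers of other muscle cell types were higher in FAPs than in ASCs. The 10 pericyte and smooth muscle markers summed to 2019.5, 1432 and 1623 in the ASC libraries, 24338 and 21419.9 in the FAP libraries, 10654, 10293 and 10658 in the injured FAP libraries and 98994 in the CD31+CD45+ library. Notch3 led that list in ASCs, Rgs5 and Acta2 in FAP 1 and FAP 2, and Cspg4 in injured FAPs, with Rgs5 in the CD31+CD45+ library. The 7 tendon markers summed to 3224, 2642 and 2371 in the ASC libraries, 263559 and 293477 in the FAP libraries, 192359, 194347 and 179561 in the injured FAP libraries and 17284 in the CD31+CD45+ library, led by Fmod in ASCs and FAPs and by Thbs4 in injured FAPs, with Fmod leading in the CD31+CD45+ library and Chad at 0 in ASC 1. The 10 Schwann cell markers summed to 1421, 1077 and 1019 in the ASC libraries, 1601 and 2471 in the FAP libraries, 940.0, 641 and 1005 in the injured FAP libraries and 13799.9 in the CD31+CD45+ library, with Pmp2 at 0 in all ASC libraries and, with Mal, in FAP 1. For skeletal muscle fibres the 10 markers summed to 158, 118 and 158 in the ASC libraries, 872 and 1041 in the FAP libraries, 309.9, 324 and 256 in the injured FAP libraries and 3771 in the CD31+CD45+ library, led by Tnnt3 in ASCs, FAP 2 and injured FAP 3 and by Acta1 in the others, with Tcap at 0 in every ASC library, Myh2 in ASC 1 and 3, Myh1 and Tnni2 in ASC 1 and Myh4 in ASC 3. For satellite cells the 7 markers summed to 83.0, 77.0 and 74.1 in the ASC libraries, 299 and 403 in the FAP libraries, 202, 169 and 171 in the injured FAP libraries and 683 in the CD31+CD45+ library, led by Msc except in the CD31+CD45+ library, where Pax7 led. Pax7 and Calcr were at 0 in all 3 ASC libraries, and Calcr in injured FAP 3. For adipocytes the 6 markers summed to 887, 887 and 698 in the ASC libraries, 813 and 204 in the FAP libraries, 195, 258 and 174 in the injured FAP libraries and 42815 in the CD31+CD45+ library, led by Fabp4 throughout, with Lep at 0 in FAP 2, in all injured FAP libraries and in the CD31+CD45+ library, and Adipoq and Cfd at 0 in injured FAP 3. Fabp4 made up most of each adipocyte sum, at 792 in FAP 1 and 42779 in the CD31+CD45+ library. The median of the adipocyte list was 45.4, 38.5 and 31.4 in ASCs and 4.75 and 6.12 in FAPs. It was 1.57, 3.10 and 0.381 in injured FAPs and 6.28 in the CD31+CD45+ library. Of 4 adipocyte markers tested, 3 were called higher in ASCs than in FAPs (75%, beside 23.4% of all genes tested) and 0 lower. The part of any of these cell types in the differences given for the axon guidance genes was not tested. In bulk samples such as these, fewer cells of a type and less RNA per cell cannot be told apart.

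**Figure D1:**
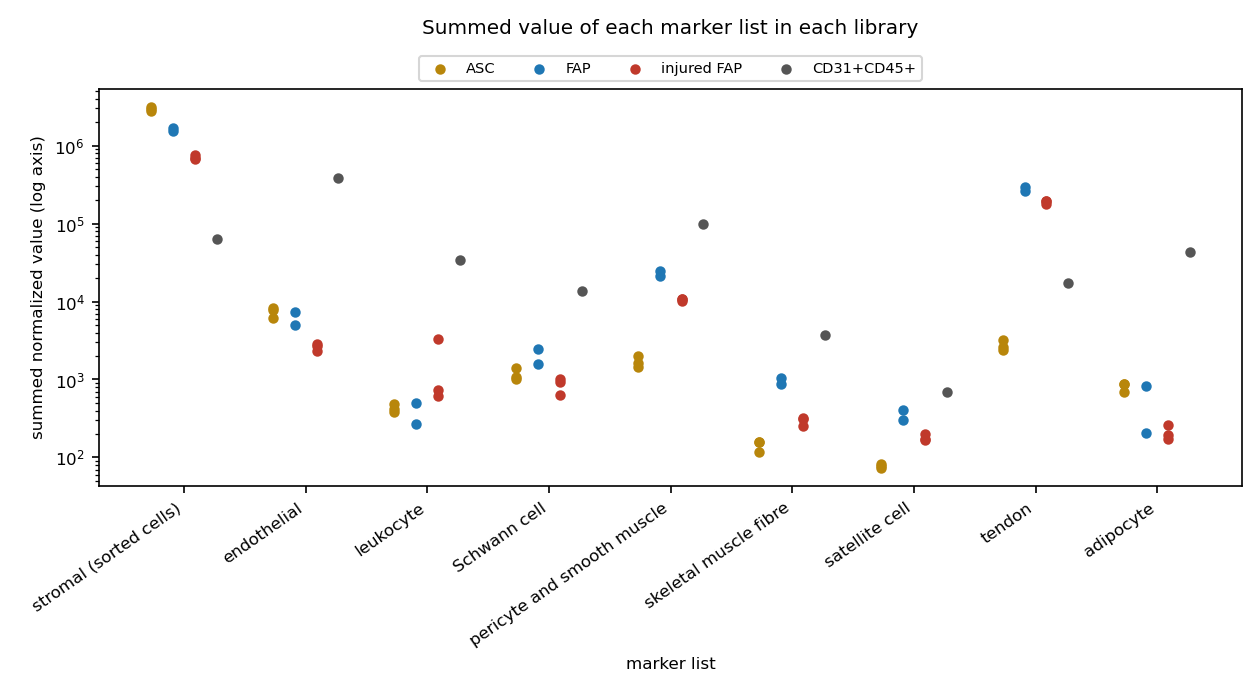
Summed normalised value of each of 9 marker lists (vertical axis, log scale) by list (horizontal axis), with 1 point per library coloured by group. The stromal list stands at 669559.9 or above in all 8 sorted stromal libraries, and the tendon list separates ASCs from both FAP groups.

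The comparison of ASCs with FAPs sets stromal cells of fat beside those of resting muscle, and that of injured FAPs with FAPs sets muscle before and after damage side by side. Most of the axon guidance members were lower in ASCs than in FAPs, and most of those called after injury fell. Of the 69 members, 57 had a mean of at least 10 over the 8 stromal libraries and were tested, among 13601 genes in all. The test was limma on log2(value + 1) with the 3 groups in 1 fit, adjusted by Benjamini-Hochberg over all 13601 genes, and a call needed both an adjusted p below 0.05 and a log2 fold change of more than 0.58 up or down. For ASCs against FAPs, 15 of the 57 members were called higher (26.3%) and 34 lower (59.6%), beside 23.4% and 23.8% of all genes tested, of which 47.2% were called. For injured FAPs against FAPs, 4 of the 57 were called higher (7.02%) and 32 lower (56.1%), beside 24.9% and 27.7% of all genes, of which 52.6% were called. For injured FAPs against ASCs, 19 were called higher (33.3%) and 19 lower (33.3%), beside 25.0% and 25.8% of all genes, of which 50.8% were called. The median log2 fold change over the 57 members was -0.89, -0.72 and 0.15 in these comparisons, and over all genes tested it was 0.00, -0.05 and 0.02. No test of the members as a list was run.

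Several properties of the design bear on every comparison. Both comparisons against FAPs use the same 2 FAP libraries, so their values are set side by side and not counted as separate evidence. Tissue and cell type cannot be told apart between ASCs and FAPs. The p-values measure the spread between these pooled libraries, with 5 residual degrees of freedom. Fold changes on log2(value + 1) understate differences of genes near 0. Scaling every library to a common 75th percentile moved the median of all genes by -0.21 for ASCs against FAPs and by 0.11 for injured FAPs against ASCs. For ASCs against FAPs that scaling took the higher share of the called genes, over all genes, from 49.6% to 37.2%, and the members from 15 higher and 34 lower to 13 and 37.

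**Figure D2:**
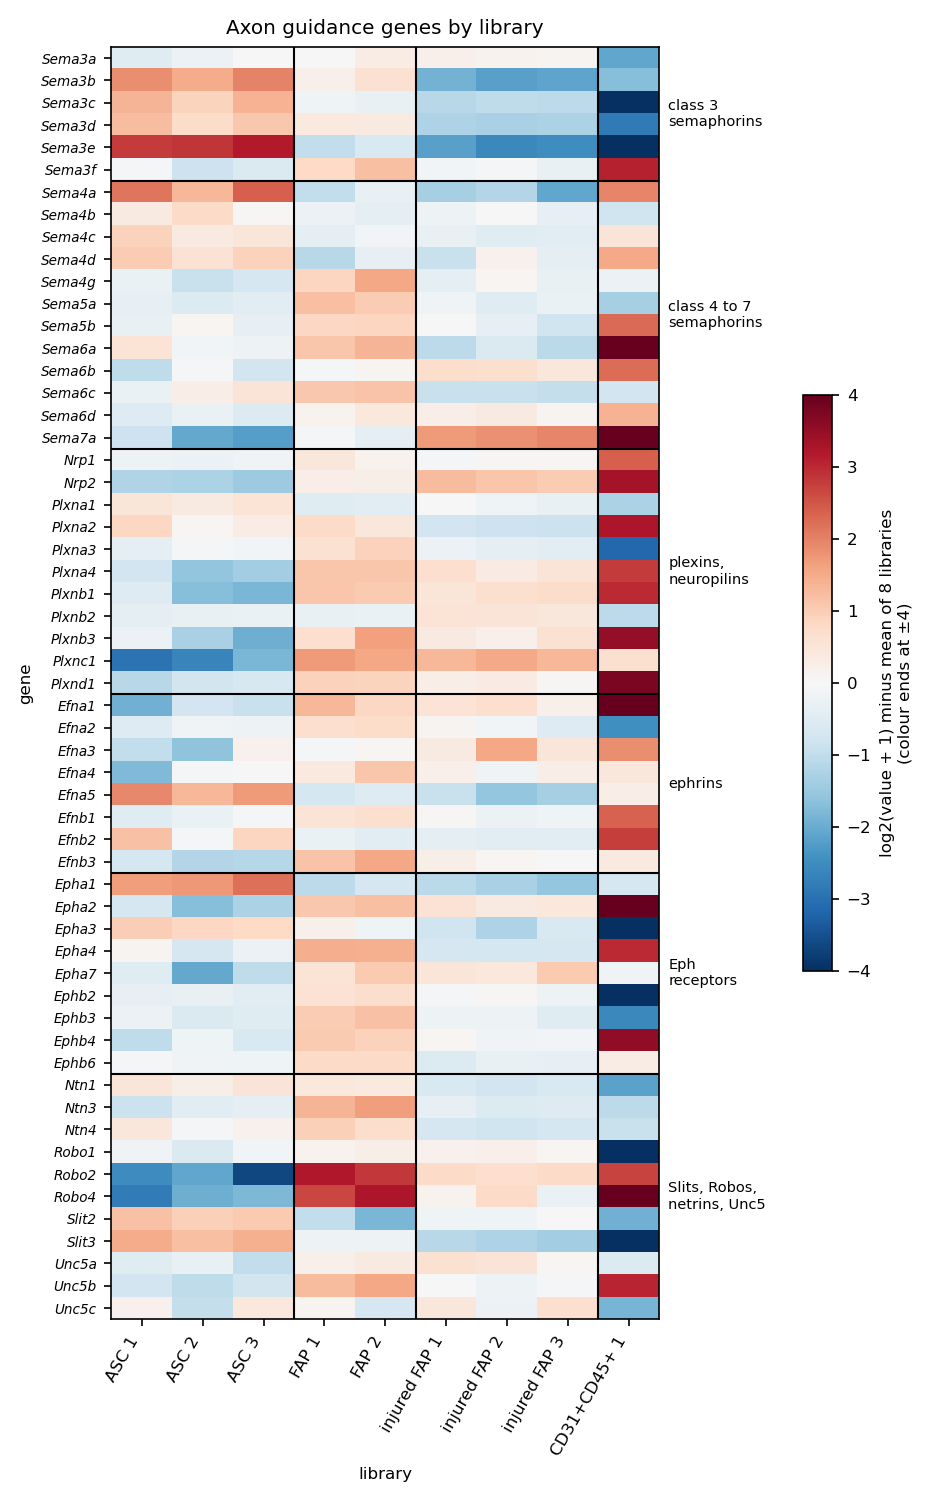
Tested axon guidance members (57 genes, vertical axis, grouped by role) in each of the 9 libraries (horizontal axis), coloured by log2(value + 1) minus the mean of the 8 stromal libraries. Slit3 and most class 3 semaphorins are high in ASCs, most Eph receptors are high in FAPs, and many receptors are highest in the CD31+CD45+ library.

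**Figure D3:**
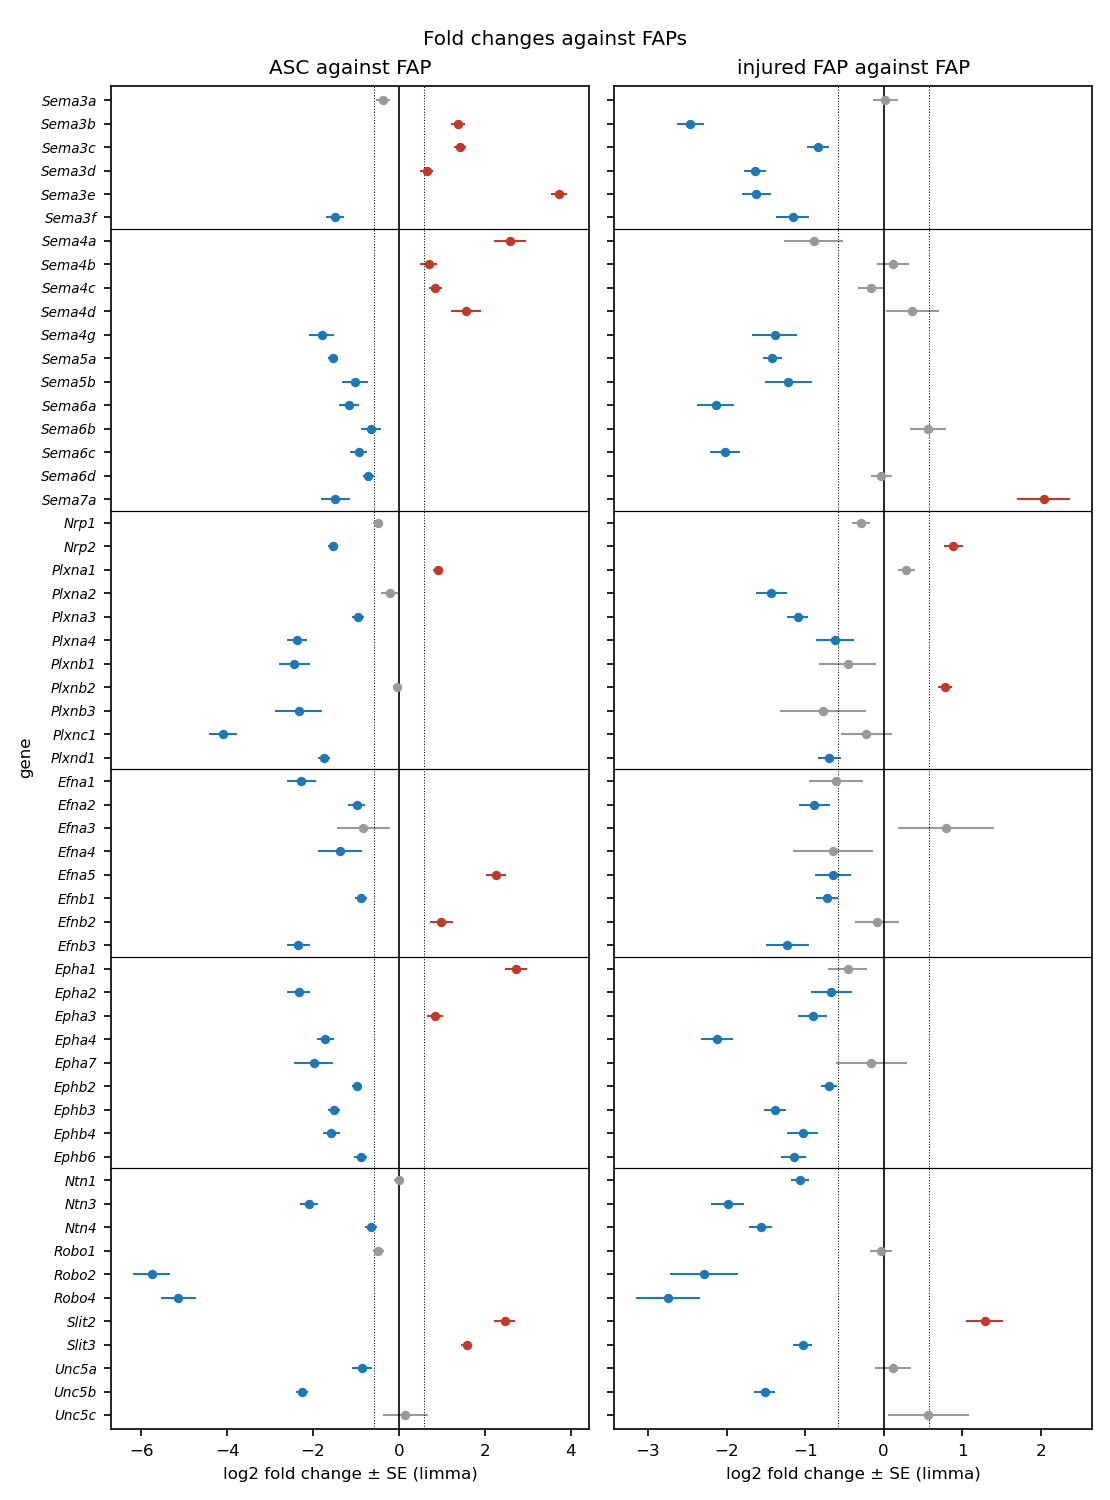
Log2 fold change with its standard error from limma (horizontal axis) of each tested member (vertical axis) for ASCs (left) and injured FAPs (right) against FAPs, red where called higher, blue where called lower and grey where not called, with dotted lines at 0.58 in both directions. Robo2 reaches -5.76 and Sema3e 3.74 in ASCs, and Robo4 -2.74 and Sema7a 2.04 after injury.

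Class 3 semaphorins, the secreted ligands, were mostly higher in ASCs, with 4 of 6 tested members called higher and 1 lower, and 5 of the 6 fell in injured FAPs. Over all genes tested, 23.4% were called higher and 23.8% lower in ASCs, and 27.7% lower after injury. A run of 4 of these genes lies on mouse chromosome 5, in the order Sema3d, Sema3a, Sema3e and Sema3c, with starts from 12383385 to 17574281. Of this run Sema3d, Sema3e and Sema3c were higher in ASCs and fell after injury, and Sema3a was called in neither comparison, although quantile normalization and the common 75th percentile removed the call of Sema3d in ASCs and the common 75th percentile called Sema3a lower there. Their promoters are printed for that reason, together with those of Sema7a and Nrp2, which went the other way. Each is 300 bases from RefSeq on GRCm38.p6, 250 before and 50 after the annotated start, 5′ to 3′. The genes and motifs were chosen after the values were seen. The positions are chr5:12382916-12383215 (+ strand), chr5:13396534-13396833 (+ strand), chr5:14025026-14025325 (+ strand), chr5:17574566-17574865 (+ strand), chr9:57939862-57940161 (+ strand) and chr1:62703067-62703366 (+ strand). For Sema3a the RefSeq start lies 271 kb downstream of the start in the gene annotation, so it is another start of that gene, while for the other 5 the starts lie within 0.535 kb of each other. Capitals mark matches, on either strand, of 5 motifs: GGGCGG, the letters of a GC box, CCAAT, of a CCAAT box, TATAAA, of a TATA box, CACGTG, of an E box, and TGANTCA, of an AP-1 site.
Sema3d: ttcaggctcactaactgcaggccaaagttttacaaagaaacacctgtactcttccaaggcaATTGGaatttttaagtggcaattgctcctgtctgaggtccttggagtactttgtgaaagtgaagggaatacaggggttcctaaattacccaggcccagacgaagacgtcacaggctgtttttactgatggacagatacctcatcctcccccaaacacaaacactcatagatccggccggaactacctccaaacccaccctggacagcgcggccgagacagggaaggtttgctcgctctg
Sema3a: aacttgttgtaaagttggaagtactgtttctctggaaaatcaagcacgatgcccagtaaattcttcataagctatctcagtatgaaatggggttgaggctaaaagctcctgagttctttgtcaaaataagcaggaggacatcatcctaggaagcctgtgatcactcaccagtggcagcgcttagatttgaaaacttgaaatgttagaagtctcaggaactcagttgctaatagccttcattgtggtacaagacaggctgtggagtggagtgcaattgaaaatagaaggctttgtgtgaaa
Sema3e: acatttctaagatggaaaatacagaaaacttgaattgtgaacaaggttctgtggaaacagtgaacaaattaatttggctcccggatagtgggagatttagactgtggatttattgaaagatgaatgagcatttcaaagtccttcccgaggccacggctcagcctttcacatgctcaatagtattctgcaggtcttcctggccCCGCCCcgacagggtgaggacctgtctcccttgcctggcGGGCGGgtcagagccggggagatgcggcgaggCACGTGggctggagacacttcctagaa
Sema3c: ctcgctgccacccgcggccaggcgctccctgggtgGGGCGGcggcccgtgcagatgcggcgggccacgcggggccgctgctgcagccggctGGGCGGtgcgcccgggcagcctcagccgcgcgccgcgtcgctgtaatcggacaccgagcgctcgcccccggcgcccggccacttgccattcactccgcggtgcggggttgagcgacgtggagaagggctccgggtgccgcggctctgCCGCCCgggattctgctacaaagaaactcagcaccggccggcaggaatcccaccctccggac
Sema7a: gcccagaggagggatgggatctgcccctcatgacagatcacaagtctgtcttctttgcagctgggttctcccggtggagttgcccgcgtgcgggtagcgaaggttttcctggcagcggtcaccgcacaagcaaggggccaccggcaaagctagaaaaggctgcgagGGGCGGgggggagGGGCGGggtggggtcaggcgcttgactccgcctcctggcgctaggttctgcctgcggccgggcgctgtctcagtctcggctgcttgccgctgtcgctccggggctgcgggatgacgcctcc
Nrp2: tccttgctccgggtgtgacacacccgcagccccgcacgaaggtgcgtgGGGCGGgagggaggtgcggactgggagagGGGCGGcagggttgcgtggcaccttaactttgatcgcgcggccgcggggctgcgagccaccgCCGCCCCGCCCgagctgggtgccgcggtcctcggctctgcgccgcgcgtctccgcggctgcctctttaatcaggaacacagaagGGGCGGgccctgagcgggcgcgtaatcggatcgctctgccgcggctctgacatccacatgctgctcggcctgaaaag
GGGCGG matched 3 times in Sema3c, 2 times in Sema3e and in Sema7a, and 5 times in Nrp2, where 1 pair of matches overlaps. CCAAT matched 1 time, in Sema3d, and CACGTG 1 time, in Sema3e, and the stretch at the downstream start of Sema3a held none of the 5 motifs. Of all 32851 promoters in the table, 35.7% hold GGGCGG, 37.4% CCAAT, 13.6% TATAAA, 7.15% CACGTG and 7.81% TGANTCA. Of the 75 promoters that the table holds for 59 members, 53 hold GGGCGG (70.7%), 21 CCAAT (28%), 2 TATAAA (2.67%), 5 CACGTG (6.67%) and 3 TGANTCA (4%). The GC content of the 6 was 49.7%, 41.3%, 50.7%, 75.7%, 67.3% and 70.7% in the order printed, beside a median of 52.7% over all promoters. A match is a description of letters and not a site.

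Sema3e, a repellent ligand that binds plexin D1 without a neuropilin, had values of 1547, 1605 and 1976 in the ASC libraries, 111 and 144 in the FAP libraries and 47.9, 36.4 and 38.1 in the injured FAP libraries. The 3 groups did not overlap, with ASCs far above FAPs and injured FAPs lowest. Sema3e had a log2 fold change of 3.74 (SE 0.19, adjusted p = 1.89e-07) in ASCs against FAPs and -1.62 (SE 0.19, adjusted p = 3.66e-05) in injured FAPs against FAPs. Sema3c, a ligand for neuropilins and plexins, read 15497, 11315 and 15882 in the ASC libraries, 5465 and 5003 in the FAP libraries and 2854, 2995 and 2933 in the injured FAP libraries. Every ASC library exceeded every FAP library, and every injured FAP library was below both FAPs. For Sema3c the log2 fold change was 1.43 (SE 0.14, adjusted p = 1.55e-05) in ASCs and -0.84 (SE 0.14, adjusted p = 0.000472) after injury, each against FAPs. Under quantile normalization the former was smaller, at 0.79, and still called. Per kilobase of exon, Sema3c was the most abundant class 3 semaphorin in all 3 groups, at means of 2592 in ASCs, 953 in FAPs and 533 in injured FAPs. Sema3b, next to Sema3f on chromosome 9, read 5052, 3923 and 5496 in the ASC libraries, 1609.9 and 2117 in the FAP libraries and 378, 308 and 322 in the injured FAP libraries. Its groups were apart in the same order as those of Sema3c, with injured FAPs well under FAPs. By limma, Sema3b had a log2 fold change of 1.37 (SE 0.17, adjusted p = 6.74e-05) in ASCs and -2.46 (SE 0.17, adjusted p = 1.36e-06) after injury. Sema3d, a ligand known from heart and vessel development, read 2002, 1397 and 1808 in the ASC libraries, 1100.2 and 1095 in the FAP libraries and 361, 342 and 353 in the injured FAP libraries. Again the groups did not overlap, and ASC 2 was nearest to the FAPs. The Sema3d log2 fold change was 0.64 (SE 0.14, adjusted p = 0.00299) in ASCs and -1.64 (SE 0.14, adjusted p = 5.76e-06) after injury. For Sema3d the call in ASCs was lost without ASC 1 (log2 fold change 0.53) and under quantile normalization (0.40) and after scaling to a common 75th percentile (0.43), and its adjusted p ran from 0.000122 to 0.025 over the 18 alternatives.

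Sema3f, the neuropilin-2 ligand that starts 0.0838 Mb from Sema3b, differed from it in direction in ASCs, where its log2 fold change was -1.49 (SE 0.21, adjusted p = 0.000165). After injury it fell as Sema3b did, at -1.16 (SE 0.21, adjusted p = 0.000737). Sema3a, the founding repellent ligand of neuropilin-1, had values of 306, 367 and 436 in the ASC libraries, 427 and 526 in the FAP libraries and 499, 480.5 and 465 in the injured FAP libraries. FAP 1 lay inside the range of the ASCs, and the injured FAPs lay between the FAP libraries, so neither comparison separated its groups. Sema3a had a log2 fold change of -0.37 (SE 0.16, adjusted p = 0.0679) in ASCs and 0.02 (SE 0.16, adjusted p = 0.909) after injury, and neither was called. A call of Sema3a as lower in ASCs was reached after scaling to a common 75th percentile (-0.58), and its adjusted p ran from 0.0131 to 0.395 over the 18 alternatives. Sema3g, which endothelial cells express, fell under the filter and, like Sema3a, was chosen after its values were seen. It read 11.9, 7.93 and 1.26 in ASCs, was listed at 0 in both FAP libraries, where 3 reads would give 2.85 and 2.82, a floor that covers counting error only, and read 14.9, 13.9 and 7.63 in injured FAPs. Its value in the CD31+CD45+ library was 8577.

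**Figure D4:**
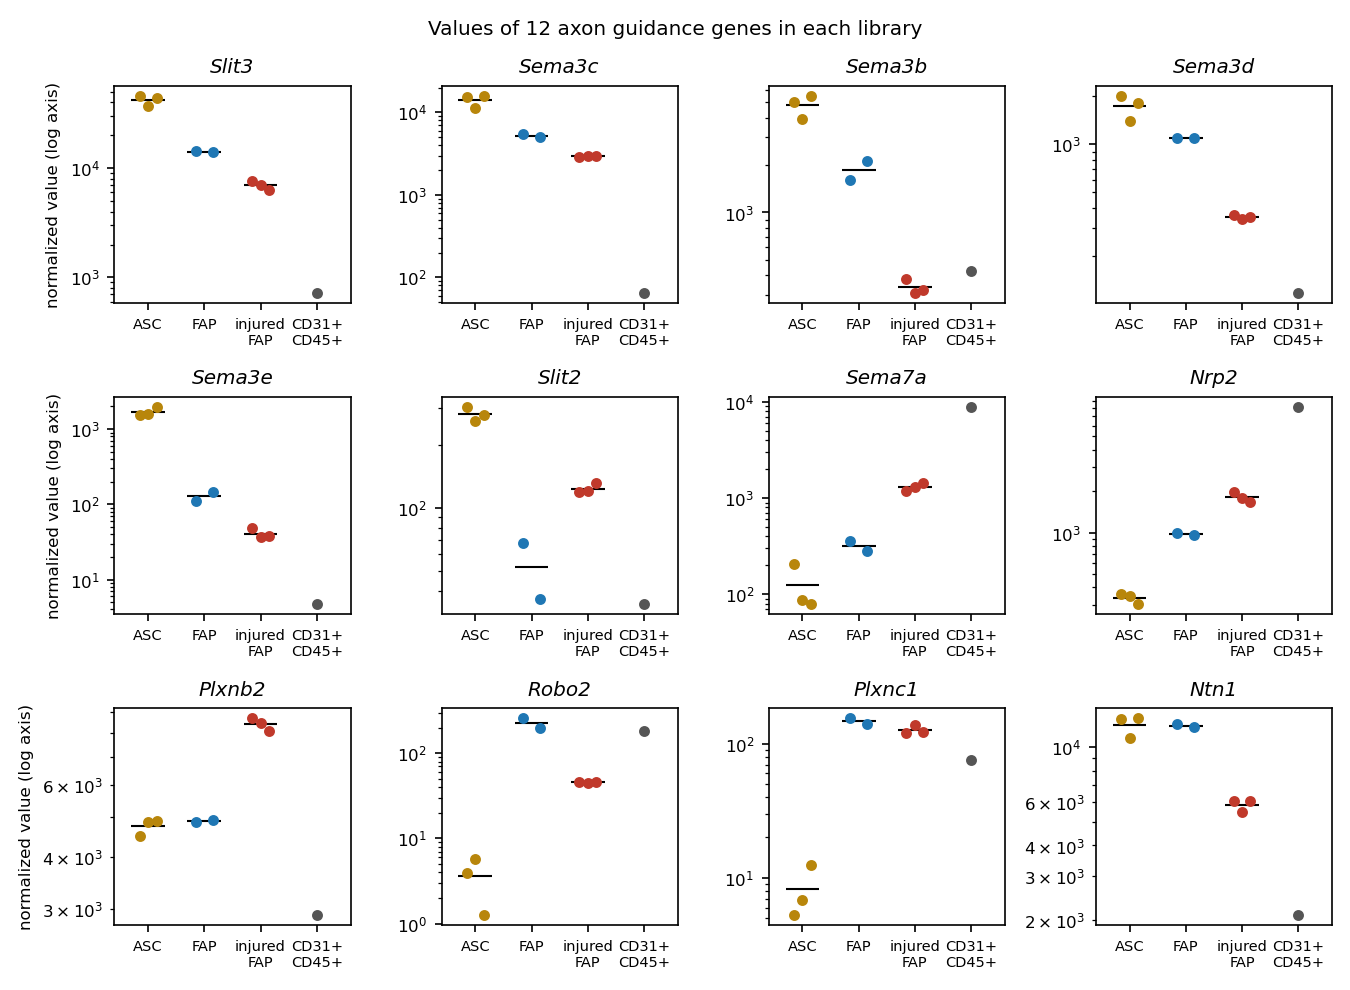
Normalised value (vertical axis, log scale) of 12 axon guidance genes in each library, by group (horizontal axis), with 1 point per library and a line at the mean of groups with more than 1 library. Sema3e runs from 36.4 in injured FAP 2 to 1976 in ASC 3, and Sema7a from 79.1 in ASC 3 to 1429 in injured FAP 3 among the stromal libraries.

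Class 4 to 7 semaphorins are membrane-bound, and all 12 tested members were called in ASCs against FAPs, 4 higher and 8 lower. The 4 that were higher are all of class 4, and the 4 of class 6 were all lower, although quantile normalization removed the call of Sema4c and the common 75th percentile that of Sema4b. After injury 1 of the 12 rose, Sema7a, and 5 fell. Beside these counts, 23.4% of all genes tested were higher and 23.8% lower in ASCs, and 24.9% rose and 27.7% fell after injury. Sema7a, a ligand anchored to the membrane by a lipid that binds plexin C1 and integrins, read 208, 87.2 and 79.1 in the ASC libraries, 357 and 283 in the FAP libraries and 1195, 1309 and 1429 in the injured FAP libraries. Injured FAPs stood above every other stromal library and ASCs below every FAP library, and ASC 1 exceeded the other ASC libraries. For Sema7a the log2 fold change was -1.48 (SE 0.34, adjusted p = 0.00354) in ASCs and 2.04 (SE 0.34, adjusted p = 0.000425) after injury, each against FAPs by limma. The ASC values of Sema7a were widely spread, with a coefficient of variation of 57.9%. Sema4a, a class 4 ligand of plexins, read 408, 232 and 493 in the ASC libraries, 46.6 and 75.3 in the FAP libraries and 36.1, 40.3 and 21.4 in the injured FAP libraries. ASCs were above all FAP libraries, and the injured FAP libraries were all below both FAPs. By limma, Sema4a had a log2 fold change of 2.58 (SE 0.37, adjusted p = 0.000191) in ASCs, and after injury it was -0.89 (SE 0.37, adjusted p = 0.0553), which was not called. For Sema4a a call as lower after injury was reached without ASC 1, ASC 2, FAP 1 or injured FAP 2 (log2 fold changes -1.23 to -0.89) and after scaling to a common 75th percentile (-0.99), with only the compared groups in the fit (-0.89) and in DESeq2 (-0.88), and its adjusted p ran from 0.028 to 0.339 over the 18 alternatives. Sema4d, the plexin B1 ligand, read 132, 96.3 and 124 in the ASC libraries, 29.5 and 50.8 in the FAP libraries and 34.5, 72.8 and 50.3 in the injured FAP libraries. ASCs did not overlap FAPs, whereas injured FAPs spanned the FAP 2 value. The Sema4d log2 fold change was 1.56 (SE 0.34, adjusted p = 0.00278) in ASCs and 0.37 (SE 0.34, adjusted p = 0.363) after injury, the latter not called. A call of Sema4d after injury was reached under quantile normalization (0.80), and its adjusted p ran from 0.0413 to 0.976 over the 18 alternatives.

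Sema4c, a plexin B2 ligand, read 4495, 3033 and 3337 in the ASC libraries, 1800.0 and 2170.4 in the FAP libraries and 1908, 1673 and 1729.8 in the injured FAP libraries. Its ASC libraries were above all FAP libraries, and the injured FAPs overlapped the FAPs. Sema4c had a log2 fold change of 0.85 (SE 0.16, adjusted p = 0.00111) in ASCs and -0.16 (SE 0.16, adjusted p = 0.395) after injury, the latter not called. The call of Sema4c in ASCs was lost under quantile normalization (0.47), and its adjusted p ran from 5.29e-06 to 0.0184 over the 18 alternatives. Sema4c was the most abundant of the membrane-bound semaphorins per kilobase in all 3 groups, at means of 850.1 in ASCs, 466 in FAPs and 416 in injured FAPs. Sema7a had a mean of 398 per kilobase in injured FAPs and was above Sema4c in injured FAP 2 and 3, so the order of the pair there is within the spread between libraries. Sema6a, a transmembrane ligand of plexins A2 and A4, read 595, 378 and 352 in the ASC libraries, 888 and 1038 in the FAP libraries and 195, 270.5 and 194 in the injured FAP libraries. FAPs were highest and injured FAPs lowest, with no overlap between groups. For Sema6a the log2 fold change was -1.16 (SE 0.23, adjusted p = 0.00162) in ASCs and -2.14 (SE 0.23, adjusted p = 2.31e-05) after injury. Sema6c, of the same class, read 315, 452 and 535 in the ASC libraries, 791 and 833 in the FAP libraries and 202, 201 and 194 in the injured FAP libraries. The order was again FAPs, ASCs and injured FAPs, without overlap. By limma, Sema6c had a log2 fold change of -0.94 (SE 0.19, adjusted p = 0.00197) in ASCs and -2.02 (SE 0.19, adjusted p = 1.02e-05) after injury. The remaining members called in ASCs were Sema4b at a log2 fold change of 0.69, Sema4g at -1.80, Sema5a at -1.53, Sema5b at -1.03, Sema6b at -0.64 and Sema6d at -0.72. Of these Sema4g, Sema5a and Sema5b were also called after injury, at -1.39, -1.42 and -1.21. For Sema4b the call in ASCs was lost without ASC 2 or FAP 2 (log2 fold changes 0.51 to 0.63) and after scaling to a common 75th percentile (0.49), and its adjusted p ran from 0.00194 to 0.081 over the 18 alternatives. For Sema5b it was lost without FAP 1 or FAP 2 (log2 fold changes -1.05 to -1.01) and under quantile normalization (-0.51), and its adjusted p ran from 0.00582 to 0.171 over the 17 alternatives. For Sema6b it was lost without ASC 1, ASC 3, FAP 1 or FAP 2 (log2 fold changes -0.72 to -0.44) and with only the compared groups in the fit (-0.64), with the replicate number as a block (-0.57) and in DESeq2 (-0.58), and its adjusted p ran from 0.000469 to 0.159 over the 18 alternatives. For Sema6d it was lost without FAP 2 (log2 fold change -0.57), and its adjusted p ran from 7.22e-06 to 0.0175 over the 18 alternatives. A call of Sema6b as higher after injury was reached with the replicate number as a block (0.63), in edgeR (0.61) and in DESeq2 (0.59), and its adjusted p ran from 0.000739 to 0.204 over the 18 alternatives. Sema4f fell under the filter, at values of 2.63, 3.40 and 2.51 in the ASC libraries, 26.6 and 19.8 in the FAP libraries and 6.28, 5.42 and 7.63 in the injured FAP libraries.

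Plexins, the semaphorin receptors, were mostly lower in ASCs than in FAPs (6 of 9 tested, with 1 higher), and 4 of the 9 fell and 1 rose after injury. Among all genes tested, 23.8% were lower and 23.4% higher in ASCs, and 27.7% fell and 24.9% rose after injury. Plxnc1, the receptor of Sema7a, read 5.27, 6.80 and 12.6 in the ASC libraries, 156 and 140.2 in the FAP libraries and 120.0, 139 and 122 in the injured FAP libraries. ASC values were far below all FAP values, and each injured FAP library was below both FAPs. The Plxnc1 log2 fold change was -4.09 (SE 0.32, adjusted p = 3.42e-06) in ASCs and -0.22 (SE 0.32, adjusted p = 0.563) after injury, the latter not called. The ASC values of Plxnc1 stand for 4, 6 and 10 reads. Plxnb1, the receptor of Sema4d, read 42.2, 18.1 and 16.3 in the ASC libraries, 132 and 128 in the FAP libraries and 85.5, 96.1 and 102 in the injured FAP libraries. FAPs were highest, injured FAPs intermediate and ASCs lowest, without overlap. Plxnb1 had a log2 fold change of -2.43 (SE 0.36, adjusted p = 0.000226) in ASCs and -0.46 (SE 0.36, adjusted p = 0.28) after injury, the latter not called. Plxna4, a partner of neuropilin-1 and receptor of class 6 semaphorins, read 69.8, 39.6 and 45.2 in the ASC libraries, 262 and 263 in the FAP libraries and 191, 151 and 174 in the injured FAP libraries. The order of the groups was that of Plxnb1. For Plxna4 the log2 fold change was -2.37 (SE 0.24, adjusted p = 1.87e-05) in ASCs and -0.61 (SE 0.24, adjusted p = 0.0448) after injury. For Plxna4 the call after injury was lost without FAP 1, FAP 2, injured FAP 1, injured FAP 2 or injured FAP 3 (log2 fold changes -0.69 to -0.52) and without the filter (-0.61), under quantile normalization (-0.61), with the replicate number as a block (-0.58) and in edgeR (-0.57), and its adjusted p ran from 0.0026 to 0.146 over the 18 alternatives. Plxnb3, a receptor known from Sema5a signalling, read 10.5, 4.53 and 2.51 in the ASC libraries, 20.9 and 41.4 in the FAP libraries and 16.5, 14.7 and 19.8 in the injured FAP libraries. ASCs were lowest and the FAPs highest, with the FAP libraries far apart from each other. By limma, Plxnb3 had a log2 fold change of -2.33 (SE 0.55, adjusted p = 0.00411) in ASCs and -0.77 (SE 0.55, adjusted p = 0.236) after injury, the latter not called. The call of Plxnb3 in ASCs was lost without FAP 2 (log2 fold change -1.85), and its adjusted p ran from 0.000569 to 0.0543 over the 17 alternatives.

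Plxnb2, the receptor of Sema4c, read 4511, 4852 and 4887 in the ASC libraries, 4862 and 4914 in the FAP libraries and 8708, 8458 and 8078 in the injured FAP libraries. ASCs and FAPs overlapped, and all injured FAP libraries were above both. The Plxnb2 log2 fold change was -0.04 (SE 0.09, adjusted p = 0.706) in ASCs, not called, and 0.78 (SE 0.09, adjusted p = 3.52e-05) after injury. Plxnd1, the receptor of Sema3e that is known from endothelial cells, was called lower in ASCs at -1.74 (SE 0.15, adjusted p = 4.96e-06) and after injury at -0.69 (SE 0.15, adjusted p = 0.00184). Its mean in FAPs was 13.9% of its value in the CD31+CD45+ library, 31738. Plxna1, a receptor for class 3 and class 6 semaphorins, was the plexin called higher in ASCs, at 0.91 (SE 0.11, adjusted p = 5.68e-05). That call was lost under quantile normalization (0.39), and its adjusted p ran from 5.37e-13 to 0.00787 over the 18 alternatives. Of the exon bases of Plxna1, 10.7% are shared with a gene on the opposite strand, and the strand setting of the counting is not stated, so whether reads of those bases belong to Plxna1 is uncertain. Plxna2 was not called in ASCs and fell after injury, at -1.43 (SE 0.20, adjusted p = 0.000116). Plxna3 was lower in both, at -0.95 in ASCs and -1.10 after injury. The antisense transcript Plxna4os1 was at 0 in all 8 stromal libraries.

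Neuropilins bind class 3 semaphorins and also vascular growth factors. Nrp2, the co-receptor of Sema3f whose promoter is printed above, read 361, 344 and 303 in the ASC libraries, 992 and 961 in the FAP libraries and 1989.8, 1787 and 1660.4 in the injured FAP libraries. The groups were apart, with ASCs lowest and injured FAPs highest. Nrp2 had a log2 fold change of -1.54 (SE 0.12, adjusted p = 3.04e-06) in ASCs and 0.89 (SE 0.12, adjusted p = 0.000101) after injury. Nrp1, the co-receptor of Sema3a, read 4005, 3897 and 4180.4 in the ASC libraries, 6342 and 5065 in the FAP libraries and 4363, 4802 and 4766 in the injured FAP libraries. FAPs were above ASCs and above injured FAPs, by less than the fold threshold. For Nrp1 the log2 fold change was -0.49 (SE 0.11, adjusted p = 0.00337) in ASCs and -0.29 (SE 0.11, adjusted p = 0.0423) after injury, and neither was called. A call of Nrp1 as lower in ASCs was reached without FAP 2 (log2 fold change -0.66) and under quantile normalization (-1.01) and after scaling to a common 75th percentile (-0.70), and its adjusted p ran from 3.27e-05 to 0.0538 over the 18 alternatives. Per kilobase Nrp1 was the most abundant of the plexins and neuropilins in all 3 groups, at 1119.7 in ASCs, 1586 in FAPs and 1291 in injured FAPs, where Plxnb2 was close at 1281 and was above Nrp1 in injured FAP 1.

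Ephrins, the membrane-bound ligands of Eph receptors, were all tested. In ASCs against FAPs 2 of the 8 were higher and 5 lower, and after injury 4 fell. The shares of all genes tested were 23.4% higher and 23.8% lower in ASCs, and 27.7% lower after injury. Efna5, anchored by a lipid, read 719, 471 and 616 in the ASC libraries, 116 and 131 in the FAP libraries and 101, 63.5 and 74.7 in the injured FAP libraries. ASCs were far above both FAP groups, and injured FAPs were all below the FAPs. By limma, Efna5 had a log2 fold change of 2.26 (SE 0.23, adjusted p = 1.97e-05) in ASCs and -0.65 (SE 0.23, adjusted p = 0.0312) after injury. For Efna5 the call after injury was lost without FAP 1, FAP 2, injured FAP 2 or injured FAP 3 (log2 fold changes -0.73 to -0.50) and under quantile normalization (-0.40), and its adjusted p ran from 0.012 to 0.154 over the 18 alternatives. Efnb2, a transmembrane ligand of Ephb4 in arteries, read 2056, 876 and 1647 in the ASC libraries, 757 and 689.6 in the FAP libraries and 695, 671 and 679.6 in the injured FAP libraries. ASCs exceeded FAPs, with ASC 2 nearest to them, and injured FAPs overlapped the FAPs. The Efnb2 log2 fold change was 0.99 (SE 0.28, adjusted p = 0.0103) in ASCs and -0.08 (SE 0.28, adjusted p = 0.804) after injury, the latter not called. The call of Efnb2 in ASCs was lost without FAP 2 (log2 fold change 0.92), and its adjusted p ran from 1.81e-05 to 0.0694 over the 18 alternatives. Efnb1, a transmembrane ligand of EphB receptors, read 721, 837 and 984 in the ASC libraries, 1485 and 1597 in the FAP libraries and 1042, 865 and 898 in the injured FAP libraries. FAPs were highest and the other groups overlapped each other. Efnb1 had a log2 fold change of -0.87 (SE 0.14, adjusted p = 0.000426) in ASCs and -0.72 (SE 0.14, adjusted p = 0.00119) after injury. Efnb3, of the same class, read 23.7, 17.0 and 17.6 in the ASC libraries, 87.5 and 118 in the FAP libraries and 47.1, 41.8 and 39.7 in the injured FAP libraries. FAPs were highest, injured FAPs intermediate and ASCs lowest. For Efnb3 the log2 fold change was -2.34 (SE 0.27, adjusted p = 4.86e-05) in ASCs and -1.23 (SE 0.27, adjusted p = 0.00271) after injury. Per kilobase Efnb2 was the most abundant ephrin in ASCs (318) and Efnb1 in FAPs (473) and injured FAPs (287), although in ASC 2 Efnb1 was above Efnb2.

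The lipid-anchored Efna1 and Efna4, neighbours of Efna3 on chromosome 3, were lower in ASCs at log2 fold changes of -2.27 (SE 0.35, adjusted p = 0.000287) and -1.37 (SE 0.51, adjusted p = 0.0374), and Efna2 at -0.98 (SE 0.20, adjusted p = 0.00155). After injury Efna2 fell at -0.88 (SE 0.20, adjusted p = 0.0026), and Efna1 and Efna4 were not called at -0.60 and -0.64. For Efna4 the call in ASCs was lost without FAP 1, FAP 2, injured FAP 1 or injured FAP 3 (log2 fold changes -1.73 to -1.01) and without the filter (-1.37), under quantile normalization (-0.83) and with only the compared groups in the fit (-1.37), and its adjusted p ran from 0.0205 to 0.232 over the 17 alternatives. Without ASC 1 the Efna4 fold change was -0.80 on the log2 scale, still called. A call of Efna1 as lower after injury was reached without ASC 1 (log2 fold change -0.60) and with only the compared groups in the fit (-0.60), and its adjusted p ran from 0.023 to 0.507 over the 18 alternatives. Efna3 was near the filter and not called in either comparison against FAPs. Of the exon bases of Efna3, 14.6% are shared with a gene on the opposite strand, and of Efna4 10.5%. The strand setting of the counting is not stated, so whether reads of those bases belong to the ephrins is uncertain.

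Eph receptors, the receptor tyrosine kinases of ephrins, had 9 tested members, all called in ASCs against FAPs, 2 higher and 7 lower, and 7 fell after injury. The 2 that were higher are Epha1 and Epha3. Of all genes tested, 47.2% were called in ASCs, 23.4% higher and 23.8% lower, and 27.7% fell after injury. Epha1 read 273, 288 and 399 in the ASC libraries, 40.9 and 53.6 in the FAP libraries and 40.0, 34.1 and 28.2 in the injured FAP libraries. ASCs were far above both FAP groups, and injured FAPs lay below both FAPs. By limma, Epha1 had a log2 fold change of 2.72 (SE 0.25, adjusted p = 8.62e-06) in ASCs and -0.46 (SE 0.25, adjusted p = 0.126) after injury, the latter not called. Of its exon bases 6.97% are shared with Zyx on the opposite strand. With the strand setting not stated, whether reads of those bases belong to Epha1 is uncertain. Epha3, a receptor of A-type ephrins, read 1777, 1625 and 1560.4 in the ASC libraries, 1054 and 802 in the FAP libraries and 521, 383 and 597 in the injured FAP libraries. The order was ASCs, FAPs and injured FAPs, without overlap. The Epha3 log2 fold change was 0.84 (SE 0.18, adjusted p = 0.00266) in ASCs and -0.90 (SE 0.18, adjusted p = 0.00156) after injury. Epha2, known from epithelial and endothelial cells, read 96.2, 46.4 and 64.0 in the ASC libraries, 322 and 352 in the FAP libraries and 231, 199 and 207 in the injured FAP libraries. FAPs were highest and ASCs lowest, without overlap. Epha2 had a log2 fold change of -2.34 (SE 0.26, adjusted p = 3.46e-05) in ASCs and -0.67 (SE 0.26, adjusted p = 0.0437) after injury. For Epha2 the call after injury was lost without ASC 3, FAP 1, FAP 2, injured FAP 1, injured FAP 2 or injured FAP 3 (log2 fold changes -0.73 to -0.60) and without the filter (-0.67) and with the replicate number as a block (-0.65), and its adjusted p ran from 0.000679 to 0.177 over the 18 alternatives. Epha4, which binds ephrins of both types, read 252, 147 and 198 in the ASC libraries, 641 and 639 in the FAP libraries and 148, 144 and 147 in the injured FAP libraries. FAPs stood above both other groups, which overlapped. For Epha4 the log2 fold change was -1.71 (SE 0.20, adjusted p = 4.94e-05) in ASCs and -2.12 (SE 0.20, adjusted p = 9.47e-06) after injury.

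Epha7, a receptor of A-type ephrins, read 18.4, 5.66 and 12.6 in the ASC libraries, 39.0 and 55.5 in the FAP libraries and 36.9, 35.6 and 54.9 in the injured FAP libraries. ASCs were below all FAP libraries, and FAPs and injured FAPs overlapped. By limma, Epha7 had a log2 fold change of -1.98 (SE 0.45, adjusted p = 0.00358) in ASCs and -0.16 (SE 0.45, adjusted p = 0.776) after injury, the latter not called. Its ASC values stand for 14, 5 and 10 reads. Ephb4, the ephrin-B2 receptor of veins, read 366, 649 and 479.6 in the ASC libraries, 1514 and 1382 in the FAP libraries and 783, 670.4 and 674 in the injured FAP libraries. FAPs were highest and ASCs lowest, without overlap. The Ephb4 log2 fold change was -1.57 (SE 0.20, adjusted p = 8.6e-05) in ASCs and -1.03 (SE 0.20, adjusted p = 0.00116) after injury. The 4 tested EphB receptors were all called lower in both comparisons, as were 23.8% (ASCs) and 27.7% (after injury) of all genes tested. For Ephb2, Ephb3 and Ephb6 the log2 fold change was -0.98, -1.51 and -0.89 in ASCs and -0.70, -1.38 and -1.14 after injury. Per kilobase Epha3 was the most abundant Eph receptor in ASCs (263) and Ephb4 in FAPs (331) and injured FAPs (162), although in injured FAP 2 Ephb2 was above Ephb4. Epha5, Epha6, Epha8, Epha10 and Ephb1 fell under the filter, with Epha6 and Epha10 at 0 in all 8 stromal libraries.

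Slits are secreted ligands and Robos their receptors, and both tested Slits were higher in ASCs while 2 of the 3 tested Robos were called lower, with Robo1 added under quantile normalization and the common 75th percentile. In that comparison 23.4% of all genes tested were higher and 23.8% lower. Slit3 (chr11:35121224-35708507) was the most abundant Slit, Robo, netrin or Unc5 gene per kilobase in all 3 groups, at 8142 in ASCs, 2719.6 in FAPs and 1333 in injured FAPs. By that measure it ranked 209 of 13327 genes in ASCs, 365 in FAPs and 937 in injured FAPs. Slit3 values were 46005, 37359 and 44332 in the ASC libraries, 14262 and 14174 in the FAP libraries and 7632, 6966 and 6312 in the injured FAP libraries. The groups did not overlap, and the order was ASCs, FAPs and injured FAPs. Slit3 had a log2 fold change of 1.58 (SE 0.13, adjusted p = 3.76e-06) in ASCs and -1.03 (SE 0.13, adjusted p = 5.35e-05) after injury. Under quantile normalization the Slit3 difference in ASCs was smaller, at 0.78, and still called. Slit2, a ligand of the same family, read 303, 259 and 276 in the ASC libraries, 67.5 and 36.7 in the FAP libraries and 118, 119 and 131 in the injured FAP libraries. ASCs were highest and FAPs lowest, without overlap. For Slit2 the log2 fold change was 2.46 (SE 0.24, adjusted p = 1.29e-05) in ASCs and 1.29 (SE 0.24, adjusted p = 0.000849) after injury, so Slit2 rose where Slit3 fell. The rise of Slit2 was 0.85 without FAP 2 and 1.72 without FAP 1, and called in both. Slit1 fell under the filter.

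Robo2, a Slit receptor, read 3.95, 5.66 and 1.26 in the ASC libraries, 261 and 197 in the FAP libraries and 46.3, 44.2 and 46.5 in the injured FAP libraries. FAPs were highest, injured FAPs intermediate and ASCs close to 0, where the values stand for 3, 5 and 1 reads. By limma, Robo2 had a log2 fold change of -5.76 (SE 0.43, adjusted p = 2.46e-06) in ASCs and -2.28 (SE 0.43, adjusted p = 0.000974) after injury. Robo4, the endothelial member, read 3.95, 7.93 and 8.79 in the ASC libraries, 216 and 326 in the FAP libraries and 36.9, 57.3 and 27.5 in the injured FAP libraries. The order was that of Robo2, without overlap. The Robo4 log2 fold change was -5.14 (SE 0.41, adjusted p = 3.63e-06) in ASCs and -2.74 (SE 0.41, adjusted p = 0.000206) after injury. Robo4 read 17066 in the CD31+CD45+ library, and its FAP mean was 1.59% of that, beside 1.53% and 0.871% for the median endothelial marker in the FAP libraries. Those FAP medians include the endothelial markers at 0 there. The Robo4 mean was 0.0404% in ASCs, where the median marker was at 0.0969% to 0.198%. In injured FAPs it was 0.238%, where the median marker was at 0.480% to 0.687%. The part of endothelial cells in the Robo4 values was not tested. Robo1, the main Robo of these cells per kilobase at 167 in ASCs and 229 in FAPs, was not called, at -0.47 (SE 0.14, adjusted p = 0.0126) in ASCs and -0.03 (SE 0.14, adjusted p = 0.836) after injury. A call of Robo1 as lower in ASCs was reached under quantile normalization (-0.72) and after scaling to a common 75th percentile (-0.68), and its adjusted p ran from 0.000434 to 0.0869 over the 18 alternatives. Robo3 fell under the filter.

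Netrins are laminin-related ligands, and 2 of the 3 tested were lower in ASCs and all 3 fell after injury. Beside them, 23.8% of all genes tested were lower in ASCs and 27.7% fell after injury. Ntn1, the ligand of Dcc and neogenin, was chosen after its values were seen and read 12947, 10846 and 13145 in the ASC libraries, 12359 and 12109.9 in the FAP libraries and 6035, 5479.9 and 6034 in the injured FAP libraries. FAPs lay within the range of the ASCs, and injured FAPs were below all of them. Ntn1 had a log2 fold change of 0.00 (SE 0.11, adjusted p = 0.979) in ASCs, not called, and -1.07 (SE 0.11, adjusted p = 1.86e-05) after injury. Under quantile normalization Ntn1 was instead called lower in ASCs, at -0.63, and its adjusted p ran from 0.000145 to 1 over the 18 alternatives. Ntn3, of the same family, read 52.7, 70.2 and 72.8 in the ASC libraries, 250.1 and 310.5 in the FAP libraries and 76.9, 65.9 and 66.4 in the injured FAP libraries. FAPs were highest, and the other groups overlapped. For Ntn3 the log2 fold change was -2.09 (SE 0.21, adjusted p = 1.91e-05) in ASCs and -1.99 (SE 0.21, adjusted p = 2.19e-05) after injury. Ntn4, a netrin of basement membranes, was called lower in ASCs at -0.65 (SE 0.15, adjusted p = 0.00328) and after injury at -1.56 (SE 0.15, adjusted p = 8.67e-06). For Ntn4 the call in ASCs was lost without ASC 2 or FAP 1 (log2 fold changes -0.53 to -0.52), and its adjusted p ran from 4.95e-05 to 0.0435 over the 18 alternatives. Unc5b, a netrin receptor of vessels, was lower in ASCs at -2.25 (SE 0.13, adjusted p = 5.4e-07) and fell after injury at -1.52 (SE 0.13, adjusted p = 6.09e-06). Unc5a was lower in ASCs at -0.86 and not called after injury at 0.12. For Unc5a the call in ASCs was lost without FAP 2 (log2 fold change -0.78), and its adjusted p ran from 0.00204 to 0.0626 over the 18 alternatives. Unc5c was called in neither, and Ntn5 and Unc5d fell under the filter.

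Summed per kilobase, ligands and receptors of a family can be set beside each other in each library. The Slits summed to 8829.9, 7172 and 8508 in ASCs, 2735 and 2715 in FAPs and 1472, 1344 and 1220.5 in injured FAPs, and the Robos to 182, 137 and 186 in ASCs, 294 and 322 in FAPs and 240.2, 248 and 224 in injured FAPs. The ratio of Slits to Robos was 48.4, 52.5 and 45.7 in ASCs, 9.30 and 8.43 in FAPs and 6.13, 5.43 and 5.45 in injured FAPs, so among the 8 stromal libraries it was highest in ASCs and lowest in injured FAPs, and in the CD31+CD45+ library it was 0.0419. Slit3 made up at least 98.9% of the Slit sum in each stromal library, and Robo1 at least 98.4% of the Robo sum in ASC libraries, 73.4% in FAP libraries and 93.3% in injured FAP libraries, so mainly these 2 genes set the ratio. The class 3 semaphorins summed to 4869, 3683 and 5074 in ASCs, 1913 and 2064 in FAPs and 893, 898 and 867 in injured FAPs. Their ratio to the neuropilins was 4.24, 3.30 and 4.26 in ASCs, 1.03 and 1.38 in FAPs and 0.636, 0.596 and 0.584 in injured FAPs, in the same order, and 0.432 in the CD31+CD45+ library. The netrins summed to 2675, 2170.3 and 2619 in ASCs, 2842 and 2705 in FAPs and 1255, 1139.6 and 1246 in injured FAPs, and their ratio to the Unc5 receptors was 25.9, 22.3 and 28.2 in ASCs, 8.81 and 7.06 in FAPs and 6.62, 6.66 and 7.81 in injured FAPs. The ASC libraries stood above both FAP groups, which overlapped in that ratio. It leaves out Neo1, which encodes the netrin receptor neogenin, at means per kilobase of 791 in ASCs, 570 in FAPs and 515 in injured FAPs. These means exceed the Unc5 sums, at most 103 in ASCs, 383 in FAPs and 189 in injured FAPs. The netrin ratio therefore holds for Unc5 receptors only and not for netrin receptors in general. The ratio of ephrins to Eph receptors was 1.19, 0.912 and 1.23 in ASCs, 0.770 and 0.803 in FAPs and 1.09, 1.04 and 1.00 in injured FAPs, with FAPs below all other libraries. These sums and ratios are descriptions with no test.

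**Figure D5:**
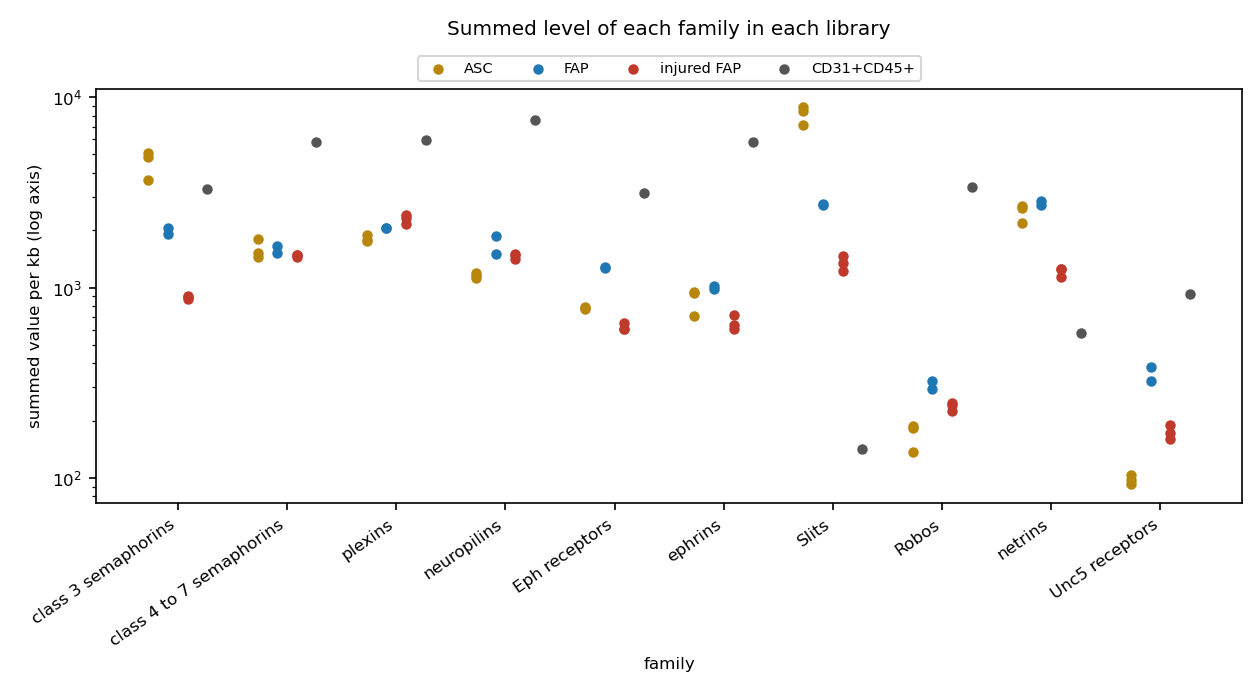
Summed value per kilobase (vertical axis, log scale) of each family (horizontal axis) in each library, coloured by group. The Slit sum lies between 7172 and 8829.9 in ASCs, above every other stromal library.

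Injured FAPs set directly beside ASCs show how far muscle cells at Day 1 after damage stood from stromal cells of fat. All 6 tested class 3 semaphorins were called lower or not called, and 7 of the 11 plexins and neuropilins were called higher. Over all genes tested, 25.0% were called higher and 25.8% lower. Sema3e, Sema3b, Sema3d and Sema3c were lower in injured FAPs, with log2 fold changes of -5.36, -3.83, -2.28 and -2.26. For Sema3e the standard error was 0.17 and the adjusted p 7.57e-09. Sema4a was lower at -3.48 (SE 0.33, adjusted p = 7.41e-06), Epha1 at -3.18 (SE 0.22, adjusted p = 8.31e-07), Efna5 at -2.90 (SE 0.21, adjusted p = 9.8e-07) and Slit3 at -2.61 (SE 0.11, adjusted p = 4.44e-08). Plxnc1 was higher in injured FAPs at 3.87 (SE 0.29, adjusted p = 1.34e-06), and its ligand Sema7a at 3.52 (SE 0.30, adjusted p = 3.63e-06). Robo2 was higher at 3.47 (SE 0.39, adjusted p = 2.24e-05), Robo4 at 2.39 (SE 0.37, adjusted p = 0.000214) and Nrp2 at 2.43 (SE 0.11, adjusted p = 4.88e-08). With a pseudocount of 8 the values of Plxnc1, Robo2 and Robo4 were 3.08, 2.23 and 1.68, still called. Plxnb1, Epha7 and Plxna4 followed at 1.97, 1.82 and 1.76. For Ntn1 injured FAPs were lower at -1.07 (SE 0.10, adjusted p = 6.39e-06). For Ntn1 that call was lost under quantile normalization (-0.54), and its adjusted p ran from 1.01e-21 to 0.000129 over the 18 alternatives. Plxnb3 was higher at 1.56 (SE 0.49, adjusted p = 0.0164) and Efna3 at 1.62 (SE 0.54, adjusted p = 0.023). For Plxnb3 this call was lost without ASC 3 or injured FAP 3 (log2 fold changes 1.16 to 1.45), and its adjusted p ran from 0.00204 to 0.0607 over the 17 alternatives. For Efna3 it was lost without ASC 2 or injured FAP 2 (log2 fold changes 1.22 to 1.25), and its adjusted p ran from 0.00689 to 0.0963 over the 17 alternatives. Mean values of Efna3 were 5.42 in ASCs and 8.98 in FAPs, so it passed the filter through the injured FAPs, and with no filter its adjusted p was 0.0291. Injured FAP 2 had the highest Efna3 value, 27.9, and also the highest leukocyte marker sum of the injured FAPs, 3293. The part of leukocytes in it was not tested. Plxna1 was lower at -0.62 (SE 0.10, adjusted p = 0.00025). For Plxna1 the call was lost without ASC 3 or injured FAP 3 (log2 fold changes -0.58 to -0.56) and under quantile normalization (-0.23), after scaling to a common 75th percentile (-0.51) and in edgeR (-0.53), and its adjusted p ran from 9.56e-08 to 0.0491 over the 18 alternatives. For Ephb4, not called here, a call as higher was reached without ASC 2 or injured FAP 2 (log2 fold changes 0.58 to 0.75) and after scaling to a common 75th percentile (0.66) and in edgeR (0.59), and its adjusted p ran from 0.00088 to 0.0787 over the 18 alternatives. For Sema4b, not called here, a call as lower was reached without ASC 1, ASC 3 or injured FAP 2 (log2 fold changes -0.75 to -0.59) and under quantile normalization (-0.72) and in DESeq2 (-0.59), and its adjusted p ran from 0.00261 to 0.0643 over the 18 alternatives. For Epha4, not called here, a call as lower was reached without ASC 2 (log2 fold change -0.61) and under quantile normalization (-0.58), and its adjusted p ran from 0.00373 to 0.189 over the 18 alternatives.

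Other axon guidance genes were followed in a list of 66, made of 15 co-receptors, other ligands and surface partners and 51 intracellular effectors, of which 63 were tested. In ASCs against FAPs 13 were called higher (20.6%, beside 23.4% of all genes tested) and 22 lower (34.9%, beside 23.8%). After injury 11 were called higher (17.5%, beside 24.9%) and 17 lower (27.0%, beside 27.7%). In injured FAPs against ASCs 18 were called higher (28.6%, beside 25.0%) and 21 lower (33.3%, beside 25.8%). With the adjusted p as the only threshold, 26 were higher in ASCs and 17 after injury, and under quantile normalization 13 were lower in injured FAPs than in ASCs. Their median log2 fold change was 0.04, -0.15 and -0.01. The called genes with the largest differences in ASCs against FAPs were Nrcam, a cell adhesion molecule and semaphorin co-receptor, at 3.11, Flrt3, a ligand of Unc5 receptors, at 2.81 and the kinase Abl2 at 2.63. The largest in the lower direction were Dpysl5, a cytosolic relay of semaphorin signals, at -3.93, Flrt1 at -3.80 and Dpysl4 at -2.91, or -2.25 without ASC 1. After injury Rnd1, a small GTPase that binds plexins, rose at 3.36, Pak1, a kinase acting on actin, at 2.96 and Enah, which lengthens actin filaments, at 1.51. Ablim3, an actin-binding protein, fell at -2.79 and Dpysl4 at -1.99. The Dpysl4 call was lost without FAP 2 (log2 fold change -1.78), and its adjusted p ran from 0.000244 to 0.0995 over the 17 alternatives. Against ASCs, injured FAPs were higher for Pak1 at 3.91, Mical2, an actin-oxidizing enzyme, at 3.0 and Dpysl5 at 2.84. They were lower for Flrt3 at -3.40 and Nrcam at -2.86. Dpysl5 read 1.32, 1.13 and 1.26 in the ASC libraries, each the value of 1 read. With a pseudocount of 8 both of its differences from ASCs were nearer to 0. Rnd1 read 788, 1018 and 931 in the ASC libraries, 203 and 114 in the FAP libraries and 1769, 1435 and 1506 in the injured FAP libraries. Both ASCs and injured FAPs were above the FAPs without overlap.

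In the CD31+CD45+ library, Plxnd1 read 31738, Nrp1 24445, Robo4 17066, Sema7a 8877 and Nrp2 8194, all above every stromal library. Slit3 there was 717, Sema3c 64.3 and Sema3e 4.71, all below every ASC and FAP library. Ephb2 read 18.8 and Epha3 14.1, again below all stromal libraries. With 1 library in that group no spread can be given.

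Cd14, Mpeg1, Plvap and Sele were at 0 in FAP 1 and FAP 2 and had values of at least 100 in each of the 6 ASC and injured FAP libraries. No axon guidance member met both conditions, although Sema3g was at 0 in both FAP libraries and at 1.26 to 14.9 in the other 6. With a value of at least 20 in place of 100 the genes numbered 13, none of them a member. The same count for ASCs was 1 gene (Acan) at 100 and 3 at 20, and for injured FAPs it was 0 at both. The reason for the zeros in FAPs was not tested, and it would bear on both comparisons against FAPs. The members whose starts are nearest to each other are Robo3 and Robo4 on chromosome 9, 0.0138 Mb apart, and Efna3 and Efna4 on chromosome 3, 0.0195 Mb apart. Sharing of exon bases with another gene was found for 13 members, above 10% for Efna3, Efna4, Ntn5 and Plxna1.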

How the data were processed

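RNA was sequenced from 9 libraries, 8 of sorted stromal cells (3 ASC, 2 FAP and 3 injured FAP) and 1 of CD31+CD45+ cells. The deposited signal values are gene counts that the authors divided by a size factor per library. By the submitters' processing notes and the study's methods, reads were filtered with fastq_illumina_filter 0.1, checked with FastQC 0.11.9, aligned to mm10 with HISAT2 2.2.1, assigned to genes by featureCounts (Subread 2.0.1) and normalised with DESeq2 1.34.0. The strand setting and the handling of reads with several alignments are not stated. Whole reads were recovered from the values: within a tolerance of 0.01, 100% of values in each library were whole multiples of the value of 1 read. A count of 3 reads corresponds to values from 2.29 to 4.71, which covers counting error only. The table also held 2 empty columns, which were left out.

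The members and all gene lists were chosen with earlier results of these data known. Genes with a mean of at least 10 over the 8 stromal libraries were tested with limma 3.58.1 in R 4.3.3, on log2(value + 1), as a model of group means whose prior variance followed the mean level, and p-values were adjusted by Benjamini-Hochberg over 13601 genes. The CD31+CD45+ library was left out of the fit, since it has no replicate. Calls needed an adjusted p under 0.05 with a log2 fold change over 0.58 in size. This gave 6416 calls for ASCs against FAPs, 7153 for injured FAPs against FAPs and 6909 for injured FAPs against ASCs. On the recovered reads edgeR 4.0.16 gave 6450, 7303 and 7000, and DESeq2 1.42.0 gave 6412, 7227 and 6865. The procedure was tested on simulated data.

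Values in every library are printed for the called members with the largest fold changes whose groups do not overlap, up to 8 in each direction and comparison, and for the most abundant member per kilobase of each role group and cell group. Exon lengths and positions come from GENCODE M21 (GRCm38), which matched 24870 of 26214 genes, and promoters from RefSeq. Alternatives changed the pseudocount (0.5 or 8), the filter (none, or a mean of at least 50), the scaling (to a common 75th percentile, or by quantile normalization), the groups in the fit, the fold threshold and the tool, added the replicate number as a block, or left out each library in turn.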

Additional observations from a re-analysis of the deposited data

Results flagged for a closer look

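Of the 69 members, 30 had a higher value in the CD31+CD45+ library than in all 8 stromal libraries, which is 43.5%, beside 22% of the 26214 genes of the table. For 3 of the 30 (Epha10, Slit1 and Unc5d) that value stands for fewer than 3 reads. They are listed because that library is outside every comparison above and has no replicate, so its values carry no test. For 10 of the 30 (Efna1, Epha2, Ephb1, Ephb4, Plxna2, Plxnd1, Robo4, Sema3g, Sema6a and Sema7a) the value was over 100 and more than 5 times the highest stromal value. Sema3g read 8577 there and at most 14.9 in the stromal libraries. Robo4 read 17066 there and at most 326 in the stromal libraries.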

How the results depend on the processing

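Of the members called, 37 of 49 were called under every alternative for ASCs against FAPs, 33 of 36 for injured FAPs against FAPs and 34 of 38 for injured FAPs against ASCs. With each library left out in turn, the members called higher and lower numbered 13 to 15 and 29 to 34 for ASCs against FAPs, 4 in each fit and 29 to 34 for injured FAPs against FAPs, and 18 to 19 and 18 to 20 for injured FAPs against ASCs. Where this left FAPs with 1 library, that library was taken to vary like the other groups. Ntn1, not called in ASCs against FAPs, at 0.00 with overlapping groups, was called lower in ASCs under quantile normalization, at -0.63. The cause was not tested. With the adjusted p as the only threshold, the other axon guidance genes called higher were 26 in place of 13 in ASCs and 17 in place of 11 after injury, since smaller differences then count. Under quantile normalization those lower in injured FAPs than in ASCs were 13 in place of 21, and the cause was not tested. Libraries of the same replicate number showed correlations of residuals from -0.0545 to 0.0446, so the numbers give no sign of pairing. With the number as a block, the members called were 15 higher and 33 lower for ASCs against FAPs, 5 and 30 for injured FAPs against FAPs and 19 and 19 for injured FAPs against ASCs. Depth limits the members with few reads, such as Robo2 and Plxnc1 in ASCs, and with a pseudocount of 8 their log2 fold changes in ASCs against FAPs were -4.35 and -3.29 (-5.76 and -4.09 as reported). That pseudocount also brought Robo4 and Plxnb3 nearer to 0 in ASCs, at -4.21 and -1.49, with no call lost. In injured FAPs against ASCs it gave 2.23 for Robo2, 3.08 for Plxnc1, 1.68 for Robo4, 0.89 for Plxnb3 and 0.92 for Efna3 (3.47, 3.87, 2.39, 1.56 and 1.62 as reported), all still called. For Dpysl5 it gave -2.17 in ASCs against FAPs and 1.32 in the direct comparison of injured FAPs with ASCs, and for Flrt1 and Dpysl4 -2.48 and -2.14 in ASCs against FAPs. Quantile normalization gave 0.78 for Slit3 and 0.79 for Sema3c in ASCs (1.58 and 1.43 as reported), -1.93 for Slit3 and 1.25 for Plxnb2 in injured FAPs against ASCs (-2.61 and 0.83 as reported), and -0.78 for Sema5b after injury (-1.21 as reported), all still called. Members with a mean under 50 have no value under the stricter filter.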
